A study of Mus musculus with 6 samples.

Results

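The cytochrome P450 genes of the families Cyp1, Cyp2 and Cyp3 were examined in mouse liver after knockdown of the long noncoding RNA Hnf1aos1. Members were taken by gene symbol alone, as every Cyp1, Cyp2 or Cyp3 symbol made of a subfamily letter followed by digits, with Cyp2c70 left out. This gave 57 of the 40803 genes in the count table, in 16 subfamilies. The Cyp2c subfamily was the largest with 14 members, followed by Cyp2d with 9, Cyp2j and Cyp3a with 7 each, Cyp2b with 5, Cyp2a with 4 and Cyp1a with 2, and the other 9 subfamilies had 1 member each.

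Enzymes of these families sit in the endoplasmic reticulum of hepatocytes, hold a haem group, and use electrons passed on by P450 oxidoreductase to oxidise drugs, steroids, fatty acids and other small molecules. Their transcription is set by nuclear receptors that sense foreign compounds, among them the pregnane X receptor (PXR, gene Nr1i2) and the constitutive androstane receptor (CAR, gene Nr1i3), by the aryl hydrocarbon receptor (Ahr), and by hepatocyte factors such as Hnf4a. The study asked how knockdown of Hnf1aos1 changes the liver. It measured RNA, proteins, histology and triglycerides, and only its RNA-seq is used here.

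RNA-seq was made from the livers of 6 male C57BL6 mice, 3 in the rAAV8-Scramble group and 3 in the rAAV8-Hnf1aos1 group, with 1 library per mouse. Both groups received rAAV8, an adeno-associated virus vector with a preference for liver, through the tail vein at about 6 weeks of age, and livers were taken 4 weeks later from mice fed normally. The virus carried a short hairpin RNA against Hnf1aos1 or a scrambled hairpin, driven by the U6 promoter, which is active in every cell type the virus enters, next to an EGFP reporter, so the scramble group carried virus, hairpin and reporter as well. No group without virus and no second hairpin was among the libraries, and the mice still had the Hnf1aos1 gene.

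Gene counts per library ran from 14704746 to 19462398 and were higher in each knockdown library than in any scramble library. Hnf1aos1 itself stood at 512, 491 and 620 normalized counts with the scrambled hairpin and 278, 258 and 433 after knockdown, which do not overlap, with a log2 fold change of -0.74 ± 0.20 (SE) that missed the threshold in edgeR (adjusted p = 0.0625) and passed it in DESeq2 (adjusted p = 0.00346). Of the 9 hepatocyte marker genes found in the table, 6 lay above and 3 below 0, with Ahsg called higher and Tat called lower, and they summed to 82226 to 87672 TPM in the scramble and 75990 to 91600 TPM in the knockdown libraries. All levels below are in TPM, a unit that corrects for both depth and transcript length, and all fold changes are log2 of knockdown over scramble from edgeR's quasi-likelihood test on counts, with Benjamini-Hochberg adjustment over the 16327 genes tested. A gene was called at an adjusted p under 0.05.

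Before the values, the DNA just upstream of some members is shown, because the members with the lowest and the highest fold changes of the Cyp2c subfamily lie close together on chromosome 19. The pair with the lowest values, Cyp2c38 and Cyp2c39, and their abundant neighbour Cyp2c29 resemble each other upstream as well. The 250 bases before the RefSeq start are printed from the GRCm38.p6 promoter table, 5′ to 3′ on the strand of each gene. They lie at chr19:39463076-39463325 on the minus strand for Cyp2c38 and chr19:39286835-39287084 on the plus strand for Cyp2c29. For Cyp2c39 they lie at chr19:39510572-39510821 on the plus strand. Of its 2 listed starts, this had the higher identity with Cyp2c38 over aligned bases, but more gaps. The printed stretches are in lower case throughout, since none held a motif searched for.
Cyp2c38: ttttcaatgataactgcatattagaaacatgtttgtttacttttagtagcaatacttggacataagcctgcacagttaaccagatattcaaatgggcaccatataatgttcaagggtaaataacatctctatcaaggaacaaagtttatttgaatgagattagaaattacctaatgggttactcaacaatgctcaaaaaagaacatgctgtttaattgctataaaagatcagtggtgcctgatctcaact
Cyp2c39: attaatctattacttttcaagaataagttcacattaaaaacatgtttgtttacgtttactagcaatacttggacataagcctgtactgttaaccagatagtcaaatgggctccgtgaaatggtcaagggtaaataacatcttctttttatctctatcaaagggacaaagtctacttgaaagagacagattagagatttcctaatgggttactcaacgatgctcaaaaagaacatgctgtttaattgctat
Cyp2c29: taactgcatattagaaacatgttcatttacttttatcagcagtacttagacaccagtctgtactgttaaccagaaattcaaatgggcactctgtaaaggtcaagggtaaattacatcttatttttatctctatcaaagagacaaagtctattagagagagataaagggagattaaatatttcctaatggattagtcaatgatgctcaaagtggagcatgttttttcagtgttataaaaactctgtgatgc
Over the bases that could be aligned, the Cyp2c38 stretch had 89.6% identical bases with that of Cyp2c39 (85.5% with that before its other start). With that of Cyp2c29 it had 82.0%. These alignments had 58, 30 and 44 gap positions, in that order, which the percentages leave out. Over their transcripts, the same comparison gave 93.9% for Cyp2c38 with Cyp2c39 and 88.7% for Cyp2c38 with Cyp2c29.

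Motifs of 2 kinds of liver factor were searched on both strands of the 300-base promoters (250 bases before and 50 after the start) that RefSeq gave for 49 of the 57 members. The letters CAAAGTCCA, a form of the site bound by Hnf4a, were found in 7 of the 49 members (14.3%) and in 0.555% of the 27025 genes with a promoter. They are printed below in capitals, with 15 bases on each side, on the strand of the gene.
Cyp2c40: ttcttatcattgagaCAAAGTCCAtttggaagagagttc
Cyp2c65: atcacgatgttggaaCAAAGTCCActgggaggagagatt
Cyp2c67: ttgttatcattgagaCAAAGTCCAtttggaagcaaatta
Cyp2c68: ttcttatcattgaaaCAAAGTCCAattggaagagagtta
Cyp2c69: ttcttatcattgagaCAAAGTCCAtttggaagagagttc
Cyp3a11: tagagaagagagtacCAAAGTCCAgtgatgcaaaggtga
Cyp3a16: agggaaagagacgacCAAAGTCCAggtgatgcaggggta
All 7 read forward, between 45 and 125 bases before the start. Cyp2c40, Cyp2c67, Cyp2c68 and Cyp2c69 are near copies and lie in a row on chromosome 19, and Cyp3a11 and Cyp3a16 are near relatives on chromosome 5, so that these matches are not independent of each other. The C/EBP core TTGCNNAA was in 14 members (28.6%, against 12.2% of all genes). Many of them are relatives within the Cyp2a, Cyp2b, Cyp2c or Cyp2j subfamily, so these matches are not independent either. Cyp2b9 and Cyp2b13, for example, both held it 180 bases before the start. A match describes these letters only, and binding was not measured.

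The 57 members held between 2.07 and 2.25% of all TPM in the scramble libraries and between 1.68 and 1.94% in the knockdown libraries. Cyp3a11, the main mouse relative of human CYP3A4, was the highest in all 6 libraries and carried 20.3 to 28.2% of the members' TPM. The 10 highest members, which also include Cyp2e1, Cyp2c29, Cyp2d9, Cyp2f2, Cyp3a25, Cyp2d10, Cyp2d26, Cyp1a2 and Cyp2j5, carried 84.3 to 86.1%. The same 10 genes led in both groups, with Cyp2f2 at rank 5 in the scramble and rank 3 in the knockdown group.

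**Figure D1:**
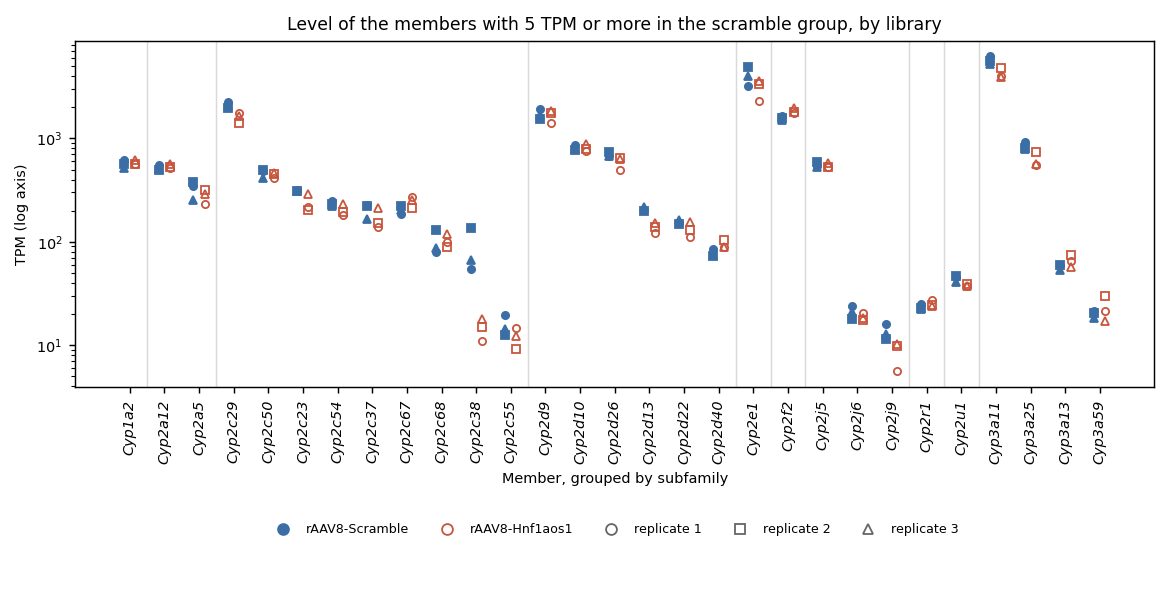
Level in TPM (log axis) of the 29 members with 5 TPM or more on average in the scramble group, grouped by subfamily, with 1 point per library (filled blue, scramble; open red, knockdown; shape, replicate number). Most members sit at the same height in both groups, and Cyp2c38 is the one whose points separate widely, at 54.6 to 137 TPM against 10.99 to 17.8 TPM.

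Of the 57 members, 42 had enough counts to be tested. Cyp2d13 alone was called, and it was lower after knockdown. That is 2.38% of the tested members, while 6.32% of all 16327 genes were called and 3.23% of all 16327 were called lower. DESeq2 called 3 of its 43 tested members, Cyp2d13, Cyp2c38 and Cyp2c39, all lower, beside 6.96% of its genes. At an unadjusted p under 0.05 there were 18 members, 13 with a lower and 5 with a higher level, beside 23.4% of all genes.

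In direction, 24 tested members lay below 0 and 18 above it, with a median log2 fold change of -0.14 beside -0.00040 for all genes tested. The normalized counts of the groups did not overlap for 10 members that were lower (23.8%, against 13.7% of all genes) and for 4 that were higher (9.52%, against 15.2%). Counts scaled to the spike-in RNA moved the median of all genes to 0.20 and that of the members to 0.064, with 18 members below and 24 above 0, so the sign of small changes rests on the scaling. In bulk liver RNA, fewer cells of a type cannot be told apart from less RNA per cell.

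The larger differences were among the members of low level. Among the 29 members with 5 TPM or more, 16 lay below and 13 above 0, and Cyp2c38 alone had a log2 fold change beyond 0.6 in size. The 13 tested members under 5 TPM had a median of -0.81, with 8 below and 5 above 0, while all 7268 genes tested under 5 TPM had a median of -0.087 and 58.0% of them below 0. No low member exceeded 118 normalized counts in a library (Cyp2b10, knockdown replicate 2), and their intervals were wide.

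**Figure D2:**
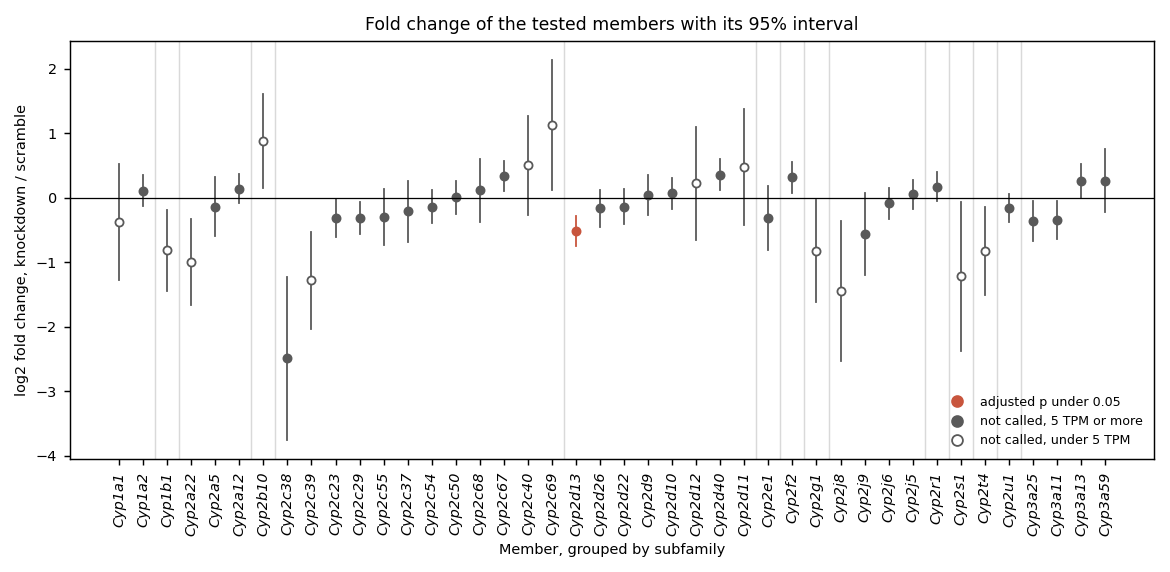
Log2 fold change (knockdown over scramble) of the 42 tested members, grouped by subfamily, with bars for the 95% interval. Cyp2d13 (red) is the only member called, most members with 5 TPM or more (filled) lie close to 0, and the members under 5 TPM (open) spread from -1.44 for Cyp2j8 to 1.13 for Cyp2c69.

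The Cyp3a subfamily, whose enzymes oxidise steroids and a wide range of drugs, had the highest summed level. Its TPM summed to 7228, 6578 and 6108 in the scramble libraries and to 4652, 5716 and 4572 in the knockdown libraries. Every knockdown library was below every scramble library, at 75.0% of the scramble mean, but on normalized counts knockdown replicate 2 lay above scramble replicate 3 and the groups overlapped. No p was computed for a sum over chosen members.

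Cyp3a11 made up most of that sum. It was present at 6224, 5682 and 5241 TPM in the scramble libraries and at 4008, 4866 and 3934 TPM in the knockdown libraries. Its log2 fold change was -0.34 ± 0.13 (SE, adjusted p = 0.15), with a 95% interval from -0.64 to -0.048, and the call was not made. Without the low-count filter it was called (adjusted p = 0.0337), and the other settings reached up to 0.512.

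Cyp3a25, the second gene of the subfamily, had 922, 816 and 795 TPM in the scramble libraries. In the knockdown libraries it had 557, 746 and 564 TPM. With a log2 fold change of -0.36 ± 0.14 (SE, adjusted p = 0.15) it was close to Cyp3a11, and both had their highest knockdown value in replicate 2. The less abundant Cyp3a13 and Cyp3a59 had log2 fold changes of 0.26 and 0.26 (both chosen after their values were seen), with groups that overlapped. Cyp3a16, Cyp3a44 and Cyp3a57 reached at most 4 counts in any library and were not tested.

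**Figure D3:**
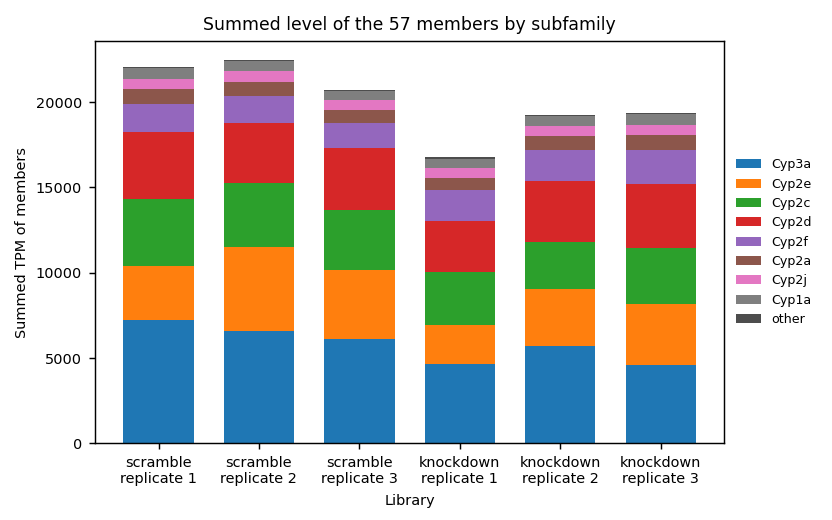
Summed TPM of the 57 members in each library, stacked by subfamily from Cyp3a at the bottom, with the lesser subfamilies summed as other. The bars reach 20704 to 22469 TPM in the scramble libraries and 16765 to 19355 TPM in the knockdown libraries, and the Cyp3a and Cyp2e segments account for much of the difference.

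Taking all 57 members, the summed level was 21739 ± 921 TPM in scramble and 18450 ± 1460 TPM in knockdown livers (SD, n = 3 each), or 84.9% of the scramble mean without overlap. On normalized counts the ratio was 89.4% and the groups overlapped. Knockdown replicate 1 was the lowest library on both scales.

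The Cyp2c subfamily, which oxidises drugs and polyunsaturated fatty acids, held the widest range of changes, from -2.48 for Cyp2c38 to 1.13 for Cyp2c69. Of its 12 tested members, 7 lay below and 5 above 0, with a median of -0.17 that turned to 0.029 with spike-in scaling. Cyp2c29 carried 51.0 to 58.5% of its TPM, and the summed level was 3727 ± 175 TPM in scramble and 3043 ± 266 TPM in knockdown livers (SD, n = 3 each), without overlap, though on normalized counts the groups overlapped.

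Cyp2c38 had the log2 fold change of largest size among the tested members. It stood at 54.6, 137 and 66.0 TPM in the scramble libraries and at 10.99, 14.8 and 17.8 TPM in the knockdown libraries. Even the lowest scramble library was well above the highest knockdown library, while the scramble libraries differed widely among themselves, with replicate 2 the highest. The knockdown mean on normalized counts was 17.9% of scramble, at a log2 fold change of -2.48 ± 0.48 (SE, 95% interval -3.75 to -1.22). edgeR gave an adjusted p of 0.060, above the threshold, and DESeq2 1.8e-05. Without scramble replicate 2, the high library, edgeR called it at -1.95 (adjusted p = 0.0049), while leaving out any other library gave no call (adjusted p = 0.0674 to 0.190). On all libraries it was called as well by limma's voom and with counts scaled to library totals or to spike-ins, within adjusted p of 1.8e-05 to 0.0778 over the settings.

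Cyp2c39, its neighbour and nearest relative, was far less abundant. It had 1.33, 2.27 and 2.02 TPM under scramble and 0.635, 1.04 and 0.500 TPM under knockdown, again without overlap. The log2 fold change was -1.28 ± 0.34 (SE), and the adjusted p of 0.05003 stood just above the threshold in edgeR, with 0.0392 in DESeq2, 0.00408 to 0.0608 over the other settings on all libraries and 0.0490 to 0.187 with a library left out. RefSeq places Cyp2c38 inside the span of Cyp2c39 on the opposite strand, and the strand setting of the counting is not given in the sources used here, so reads shared between them cannot be told apart. No 100-base stretch of either transcript occurred in another gene's transcript.

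Cyp2c29, a target of CAR, was at 2276, 1977 and 2060 TPM in the scramble libraries. The knockdown libraries had 1755, 1422 and 1668 TPM, all below the scramble libraries. Its log2 fold change was -0.31 ± 0.11 (SE, adjusted p = 0.12), small beside that of Cyp2c38. Cyp2c37, Cyp2c54 and Cyp2c50, which lie together on the far side of the cluster, had log2 fold changes of -0.21, -0.14 and 0.0086, and their groups overlapped. For Cyp2c50, at 463 TPM in scramble and 442 TPM in knockdown livers, the 95% interval ran from -0.25 to 0.26.

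Between these lie Cyp2c67, Cyp2c68, Cyp2c40 and Cyp2c69, 4 near copies in a row, and all had fold changes above 0. Cyp2c67 (named with Cyp2c68 after their values were seen) had 185, 222 and 203 TPM under scramble and 270, 211 and 254 TPM under knockdown. Its normalized counts did not overlap, at a log2 fold change of 0.34 ± 0.11 (SE, adjusted p = 0.088), while in TPM its knockdown replicate 2 lay among the scramble libraries. Cyp2c68 had a log2 fold change of 0.12, Cyp2c40 of 0.50 and Cyp2c69 of 1.13. None of the 4 was called by edgeR with TMM scaling and the low-count filter. Cyp2c67 was called higher without that filter and with counts scaled to spike-ins.

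The last pair, Cyp2c40 and Cyp2c69, are genes that female livers express more than male livers. Between 19.8 and 44.1% of the 100-base windows of these 4 transcripts also occurred in another gene, and Cyp2c40 and Cyp2c69 shared 97.8% of aligned bases. Uniquely mapped reads therefore cannot separate these copies fully, and the 4 values are not independent of each other.

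**Figure D4:**
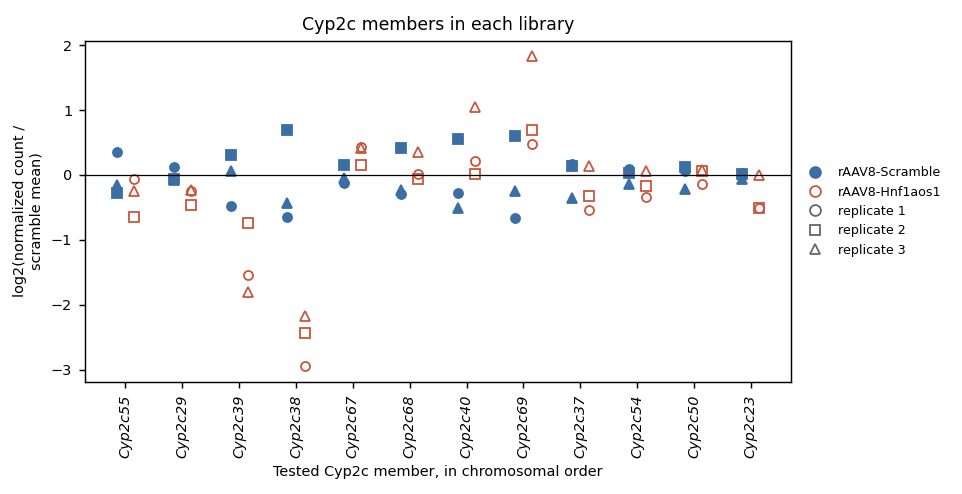
Normalized count of each tested Cyp2c member in each library as log2 of its ratio to the scramble mean, with members in chromosomal order (filled blue, scramble; open red, knockdown; shape, replicate number). Cyp2c39 and Cyp2c38 lie below their scramble libraries in all 3 knockdown libraries, and their neighbours Cyp2c67 to Cyp2c69 lie around or above 0.

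The remaining members of the subfamily were Cyp2c23, Cyp2c55, Cyp2c65 and Cyp2c66. Cyp2c23, which makes epoxides of arachidonic acid and is named here after its values were seen, had a log2 fold change of -0.32 (adjusted p = 0.18). It was called lower without knockdown replicate 3, its highest knockdown library, and without the low-count filter. Cyp2c55 had 15.4 TPM in scramble and 12.0 TPM in knockdown livers, and its interval ran from -0.73 to 0.13. Cyp2c65 reached 2 counts at most, and Cyp2c66 was at 0 in all libraries.

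The Cyp2d subfamily, which oxidises many basic drugs, was nearly level as a whole. Its summed TPM was 3664 ± 223 in scramble and 3437 ± 409 in knockdown livers (SD, n = 3 each), and the groups overlapped. Of 8 tested members, 3 lay below and 5 above 0, with a median of 0.059 that turned to -0.014 with library totals.

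Cyp2d13 was the member that fell. It had 201, 200 and 216 TPM in the scramble libraries and 121, 138 and 150 TPM in the knockdown libraries. The scramble libraries lay close together and all knockdown libraries below them, at 70.2% of the scramble mean on normalized counts. The log2 fold change was -0.51 ± 0.11 (SE, adjusted p = 0.020). The adjusted p was 0.0507 to 0.103 without scramble replicate 1, 2 or 3 or without knockdown replicate 2, at fold changes of -0.53 to -0.50, while the call was made without knockdown replicate 1 (0.0318) or 3 (0.00392). With spike-in scaling the adjusted p was 0.0782 at a log2 fold change of -0.31. RefSeq lists Cyp2d13 as a transcribed pseudogene.

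Cyp2d9, the most abundant of the subfamily and a male-predominant steroid hydroxylase, overlapped between the groups. Its levels were 1931, 1533 and 1674 TPM under scramble and 1402, 1756 and 1857 TPM under knockdown. The log2 fold change was 0.046, with a 95% interval from -0.27 to 0.36. Cyp2d10 (0.072, interval -0.17 to 0.31) and Cyp2d26 (-0.16, interval -0.45 to 0.12) were also close to 0. Cyp2d40, named after its values were seen, was the one member of the subfamily with higher normalized counts in every knockdown library, at 0.36 ± 0.11 (SE, adjusted p = 0.081).

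Cyp2e1, the ethanol-oxidising P450 of pericentral hepatocytes, was the second most abundant member and had the largest SE of the 10 highest. It was found at 3187, 4946 and 4041 TPM under scramble and at 2307, 3332 and 3606 TPM under knockdown. Scramble replicate 1 lay below 2 of the knockdown libraries, so the groups overlap. Its log2 fold change was -0.32 ± 0.22 (SE, adjusted p = 0.43), with a 95% interval from -0.81 to 0.18.

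Cyp2f2, which activates naphthalene and is typical of periportal hepatocytes, lay on the other side of 0. It had 1649, 1577 and 1498 TPM under scramble and 1775, 1818 and 1993 TPM under knockdown. All knockdown libraries were above all scramble libraries, at 125% of the scramble mean on normalized counts. The log2 fold change of 0.32 ± 0.11 (SE, adjusted p = 0.11) was not called, except with counts scaled to spike-ins (adjusted p = 0.0152, within 0.0152 to 0.179 over the other settings on all libraries).

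Cyp1a2, Cyp2a12 and Cyp2j5 were level within their spread. Cyp1a2, which oxidises caffeine, had 617, 566 and 518 TPM under scramble and 563, 565 and 615 TPM under knockdown. The knockdown values lay within the range of the scramble values, and the 95% interval of the log2 fold change of 0.11 ran from -0.13 to 0.35. Cyp2a12, a steroid hydroxylase, had 555, 496 and 503 TPM against 518, 534 and 569 TPM, with 0.14 and an interval from -0.085 to 0.36. Cyp2j5 had 551 TPM in scramble and 542 TPM in knockdown livers, with 0.054 and an interval from -0.18 to 0.28. It carried most of the Cyp2j sum, but 3 of the 4 tested Cyp2j members lay below 0. Their median was -0.32, or -0.11 with spike-in scaling. Cyp2j9, named after its values were seen, had -0.56 (adjusted p = 0.27) without overlap, at 13.3 TPM in scramble and 8.54 TPM in knockdown livers.

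Single-member subfamilies outside the abundant group were mixed. Cyp2r1, a vitamin D 25-hydroxylase, was at 23.3 TPM in scramble and 25.0 TPM in knockdown livers, and its normalized counts were higher in all knockdown libraries at a log2 fold change of 0.18 (adjusted p = 0.34). Cyp2u1, a fatty acid hydroxylase, was at 44.2 TPM against 37.6 TPM, with -0.16 (adjusted p = 0.36). Cyp2g1, known from the olfactory epithelium, Cyp2t4 and Cyp2s1 lay between 0.693 and 2.01 TPM in the scramble group, with log2 fold changes of -0.83, -0.82 and -1.22 and adjusted p of 0.19, 0.14 and 0.19. Cyp2w1 reached 9 counts at most and was not tested.

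Among other low members, Cyp2j8 had 1.46, 0.774 and 0.683 TPM under scramble and 0.282, 0.529 and 0.203 TPM under knockdown. It had the second lowest fold change of the tested members, -1.44 ± 0.50 (SE, adjusted p = 0.11), on 24.6 normalized counts at most. Cyp2a22, named after its values were seen, had -0.99 (adjusted p = 0.076) with no overlap between the groups.

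Members known as targets of the foreign-compound receptors did not share a direction. Of the 7 known CAR or PXR targets, namely Cyp2b10, Cyp2c29, Cyp2c37, Cyp2c50, Cyp2c54, Cyp2c55 and Cyp3a11, 2 lay above and 5 below 0, with a median of -0.21 (-0.0074 with spike-in scaling). None was called by edgeR with TMM scaling and the low-count filter, or by DESeq2. Without that filter, edgeR called Cyp2b10 higher (adjusted p = 0.0175) and Cyp3a11 lower (adjusted p = 0.0337). Cyp2b10, the classical CAR target, stood at 2.04, 5.29 and 3.23 TPM under scramble and 6.13, 7.58 and 4.70 TPM under knockdown. Its groups overlapped, since scramble replicate 2 exceeded knockdown replicate 3, and its log2 fold change was 0.88 ± 0.32 (SE, adjusted p = 0.14).

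The 3 targets of the aryl hydrocarbon receptor, Cyp1a1, Cyp1a2 and Cyp1b1, had log2 fold changes of -0.37, 0.11 and -0.81, and none was called. Cyp1a1, which is low in liver unless induced, stayed at or below 1.42 TPM in every library. Cyp1b1 had 0.743, 1.03 and 1.06 TPM under scramble and 0.427, 0.578 and 0.513 TPM under knockdown, without overlap (adjusted p = 0.11).

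Members that female livers express more than male livers stayed low in these males. Cyp2b9 was at 0 counts in all 6 libraries, Cyp2b13 had 1 count in 1 library, and Cyp2a4 reached at most 27 counts in a library. For a gene at 0, up to 3 counts in a library could have been missed. Cyp2a4 shares 98.3% of aligned bases with Cyp2a5, so its few reads could be misplaced. Altogether 15 members were not tested, of which 4 (Cyp2b9, Cyp2b23, Cyp2c66 and Cyp2j13) had no count and 11 had at least 1.

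The genes that control these enzymes were compared as well. Of 17 regulators, 16 were tested, with 8 above and 8 below 0 and a median of -0.0034, and Nr1i3 and Nfe2l2 fell. The median of the regulators was 0.20 with spike-in scaling, under which both were still called lower. CAR, the product of Nr1i3, drives Cyp2b10 and Cyp2c29, and Nr1i3 had 34.4, 34.5 and 34.1 TPM under scramble and 18.6, 24.9 and 19.4 TPM under knockdown. The scramble values were nearly equal and the knockdown values all lower, at -0.63 ± 0.13 (SE, adjusted p = 0.017). Nfe2l2, which codes for the oxidative stress factor Nrf2, had 73.3, 64.2 and 72.2 TPM against 49.7, 47.0 and 44.9 TPM, at -0.49 ± 0.086 (SE, adjusted p = 0.011). Neither was called without scramble replicate 3 (adjusted p = 0.0846 for Nr1i3 and 0.0736 for Nfe2l2), and Nr1i3 was not called without scramble replicate 2 (0.0554).

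Nr1i2, the gene of PXR, had 54.8, 47.4 and 53.3 TPM under scramble and 29.9, 35.4 and 41.8 TPM under knockdown, without overlap. Its log2 fold change was -0.46 ± 0.13 (SE), with an adjusted p of 0.065 in edgeR and 0.0388 in DESeq2. Ahr had -0.32 (adjusted p = 0.15). Of the regulators reported here, the largest fold change lay above 0, that of Onecut1, a liver transcription factor gene, which had 24.0, 35.3 and 13.2 TPM under scramble and 104, 73.9 and 138 TPM under knockdown, without overlap. Its log2 fold change was 2.19 ± 0.46 (SE), with an adjusted p of 0.070 in edgeR and 0.00025 in DESeq2. DESeq2 called 8 regulators, 4 lower (Nr1i2, Nr1i3, Nfe2l2 and Nr0b2) and 4 higher (Onecut1, Cebpb, Foxa2 and Rxra), and all but Nr1i2, Nr1i3 and Nfe2l2 are named after their values were seen. Hnf4a, a main hepatocyte factor, had -0.085 with a 95% interval from -0.35 to 0.18.

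**Figure D5:**
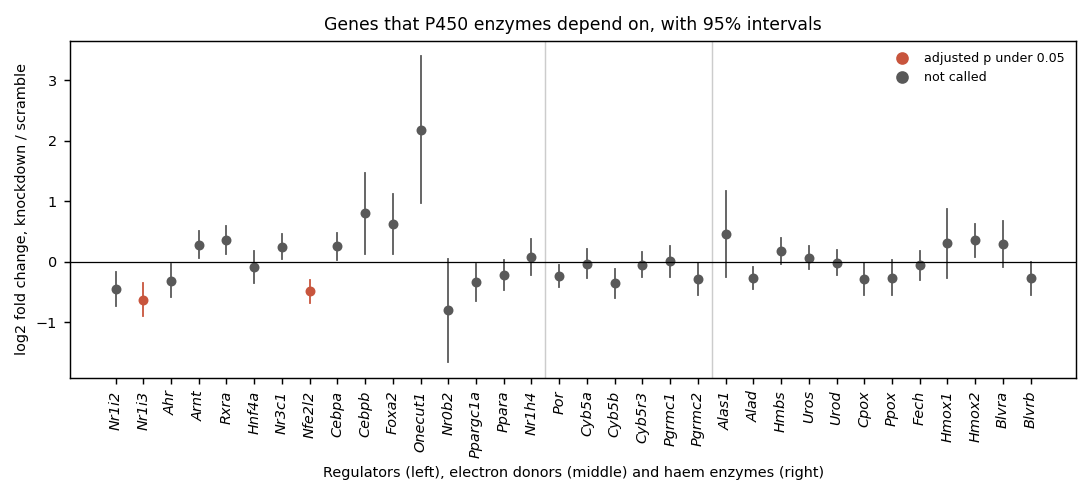
Log2 fold change (knockdown over scramble) of the tested regulators (16), electron donors (6) and enzymes of haem synthesis and breakdown (12), with bars for the 95% interval. Nr1i3 and Nfe2l2 (red) are the 2 genes called, and Hnf4a lies near 0.

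Partners of the enzymes showed no call in edgeR with TMM scaling and the low-count filter, and DESeq2 called Cyb5b lower. With library totals, edgeR called 2 electron donors and 1 haem gene, and with spike-in sizes 2 haem genes. Of 6 electron donors and partners, 1 lay above and 5 below 0, with a median of -0.15 that turned to 0.054 with spike-in scaling. Por, the P450 oxidoreductase that serves all members, had 84.6, 86.3 and 83.7 TPM under scramble and 71.7, 67.6 and 65.4 TPM under knockdown, all lower, at -0.24 ± 0.083 (SE, adjusted p = 0.11). The 12 genes of haem synthesis and breakdown split evenly, 6 above and 6 below 0, with a median of 0.026 (-0.046 with library totals).

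Other gene groups differed over the same split of libraries. All 18 acute-phase genes, which hepatocytes express in inflammation, lay above 0 with a median of 1.10. With TMM scaling, edgeR called 4 of them higher (Hpx, Fga, Fgb and Fgg), and DESeq2 called 14 higher. The summed level of all 18 was 14222 to 15408 TPM in the scramble libraries and 32843, 37425 and 19712 TPM in knockdown replicates 1, 2 and 3. Of 8 Kupffer cell and macrophage markers, all lay above 0 with a median of 0.43, and they summed to 143 to 177 TPM against 177 to 229 TPM. Clec4f and Adgre1 were called higher by edgeR with TMM scaling, while 0 of the markers were called with library totals and 8 with spike-in sizes. DESeq2 called Clec4f, Cd5l and Marco higher, but not Adgre1 (adjusted p = 0.0791). The 6 neutrophil markers were too low to be tested, with Ly6g at 0 and a sum of 0.669 to 1.45 TPM against 3.01 to 6.44 TPM. The part of these changes in the values of the P450 members was not tested.

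Markers of liver zones other than the P450 members were not called by edgeR with TMM scaling, while DESeq2 called 2 pericentral genes lower, Axin2 (-0.76 in edgeR, DESeq2 adjusted p = 0.0176) and Oat (-0.57, 0.0281). Of 10 pericentral genes, 3 lay above and 7 below 0 with a median of -0.33, and of 10 periportal genes, 5 lay above and 5 below 0 with a median of -0.058 (0.15 with spike-in scaling, under which 1 pericentral and 2 periportal genes were called). The 8 pericentral members, among them Cyp2e1, Cyp1a2 and Cyp3a11, had a median of -0.17 with 2 above and 6 below 0, and of 0.027 with 4 on each side under spike-in scaling. Markers of endothelial cells (8 tested, median -0.037, turning to 0.16 with spike-in scaling), stellate cells (8, -0.23), cholangiocytes (4, 0.31) and lymphocytes (6, 0.12) had no call with TMM scaling, and 1 endothelial marker was called with spike-in scaling.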

How the data were processed

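Liver RNA was sequenced in 6 libraries, and samples were assigned to groups by their titles. Per the paper, the authors trimmed reads, aligned them with STAR to GRCm38 and used featureCounts on uniquely mapped exonic reads. The deposited count table holds unscaled whole numbers in 40895 rows. The labels name GRCm39 instead, and they describe depletion of ribosomal RNA where the paper describes a poly(A) kit. Gene coordinates were therefore not taken from the files. The deposited TPM values served for levels and sums. Deposited normalized counts and the authors' table of fold changes and p-values were not used.

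The 92 spike-in rows were left out, at 1.18 to 1.52% of counts. In R 4.3.3, edgeR 4.0.16 was run on the counts with TMM scaling, filterByExpr and robust quasi-likelihood fits, with group as the only term. An adjusted p under 0.05 was a call, and 1 the limit for the log2 fold change. Normalized counts are counts scaled by TMM library sizes. The confidence level of intervals was 95%. Alternatives were DESeq2 1.42.0, voom from limma 3.58.1, other scalings and filters, a replicate block and each library left out. The scripts were tested on simulated data. Alignments used Biopython 1.88.

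Members were named by rule: called members, the highest in each subfamily, the 10 highest, the 3 largest changes each way, Cyp1a2 and Cyp2a12, and known receptor-target or female-predominant members. A regulator that the rule also names is not reported here. The members and lists were chosen with earlier results of these data known. Pairs of libraries of a group differed by 7.73 to 31.9 chi-square units per gene, well over the value near 1 that sampling noise gives, so none was counted as a repeat. With 3 mice against 3, an exact permutation test cannot go below p = 0.1 and was not run. P-values set the difference between the groups against the spread between these mice.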

Additional observations from a re-analysis of the deposited data

How the results depend on the processing

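The single member called by edgeR became 3 with DESeq2, 2 with DESeq2's size factors in edgeR, 3 with library totals, 9 without the low-count filter (3 higher, 6 lower), 2 with a mean of at least 50 counts, 2 with voom and 7 with spike-in sizes (added after seeing the data), and 0 to 2 with a library left out (0 without scramble replicate 1 or 3, 2 without knockdown replicate 3). Beside these, all genes called rose to 20.8% with spike-in sizes, where the members' share was 16.7%, and were 6.92% without the filter, where the members' share was 17.0%, and 5.38 to 6.96% in the other fits on all libraries. With a library left out, the share of all genes called ran from 0.619% (without scramble replicate 3) to 11.2% (without knockdown replicate 3). It was 3.74% without scramble replicate 1. Without the filter, Cyp2b10, Cyp2c67 and Cyp2d40 were called higher. Cyp2a22, Cyp2c23, Cyp2c39, Cyp2d13, Cyp3a11 and Cyp3a25 were called lower. With spike-in sizes, Cyp2c67, Cyp2d40, Cyp2f2, Cyp2r1 and Cyp3a13 were called higher, and Cyp2c38 and Cyp2c39 lower. Past the fold limit of 1, the 0 members became 2 with DESeq2, 1 with its size factors, 2 with library totals, 1 without the filter, 1 with the minimum mean, 1 with voom, 2 with spike-in sizes and 0 to 1 with a library left out (1 without scramble replicate 2 or knockdown replicate 2). The share of all genes past this limit was not computed, so these counts cannot be read as particular to the members. The 2 called genes among regulators, electron donors and haem genes became 9 with DESeq2, 6 with library totals, 6 without the filter, 10 with spike-in sizes and 0 to 7 with a library left out (0 without scramble replicate 3, 4 without knockdown replicate 1, 7 without knockdown replicate 3). Hnf1aos1 passed the threshold with DESeq2 (-0.74), without the filter (-0.74), with voom (-0.77) and without knockdown replicate 3, in a range of -1.01 to -0.60 with a library left out. The cause of these moves was not tested.

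Replicate numbers did not pair the libraries, since same-numbered libraries had correlations of -0.023, 0.023 and 0.0032 and not every library correlated best with its own number. With the replicate block, 3 members were called, 2 of them past the fold limit, and Hnf1aos1 was called at -0.77.

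Of the 29 named members tested, 21 kept their direction in every alternative fit that tested them (14 fits were run, and members of low counts dropped out of the one with a minimum mean) and 8 turned in at least 1. With library totals, Cyp2c50 turned to -0.061, Cyp2d10 to -4.0e-05, Cyp2d9 to -0.027 and Cyp2j5 to -0.017, and with the minimum mean Cyp2c50 turned to -0.022. With spike-in sizes, Cyp2c54 turned to 0.065, Cyp2d26 to 0.037 and Cyp2u1 to 0.044. With a library left out, the ranges that crossed 0 were -0.72 to 0.0023 for Cyp1a1, -0.095 to 0.071 for Cyp2c50, -0.044 to 0.17 for Cyp2d9 and -0.0050 to 0.12 for Cyp2j5. Depth limits the members under 5 TPM, and 15 members could not be tested at it.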

Other observations

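Rows that resemble the members but are not among them behaved as follows. The pseudogenes Cyp2d37-ps and Cyp2c53-ps had log2 fold changes of -0.47 (adjusted p = 0.075) and -1.03 (adjusted p = 0.061) in edgeR, and neither was called. Cyp2c53-ps had 34, 45 and 28 counts in the scramble and 21, 19 and 20 counts in the knockdown libraries. Cyp2ab1 had at most 4 counts in a library, and Cyp3a41a and Cyp3a41b, which female livers express, were at 0 in all 6 libraries. Cyp2c70, which codes for an enzyme that makes muricholic acids and is left out of the members by definition, rose from 4271 to 4908 counts in the scramble to 10883 to 13671 counts in the knockdown libraries, at a log2 fold change of 1.26 (edgeR, adjusted p = 0.00066). These rows were chosen after their values were seen.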
